A study of Homo sapiens with 6 samples.

Results

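The control siRNA libraries of KGN, a human granulosa cell tumour line, were examined for the genes expressed at baseline. A gene was counted as expressed when its mean over the 3 control libraries was at least 1 TPM (transcripts-per-million, a read count scaled to transcript length and to the library), and 14156 of the 60671 annotated genes (23.3%) were. The rule was applied to these 3 libraries alone, and no comparison with cells that received siRNAs against FOXL2 was made.

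The study depleted FOXL2 by siRNA in KGN cells and sequenced their RNA, in 6 libraries. All of the cells were genome-edited to carry 2 wild-type FOXL2 alleles (genotype FOXL2 WT/WT), so the line used here was not the parental one. The cells of the 3 control libraries received 30 pmol of a control (scrambled) siRNA with a lipid reagent, and RNA was extracted 30 h later, so the values describe transfected cells and not untreated ones. The cells were 1 tumour-derived line grown without a follicle, and neither the labels nor the methods say whether the 3 libraries came from separate cultures. The spread between them may therefore be technical.

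Granulosa cells surround the oocyte in the ovarian follicle and turn androgens into estrogens under the control of follicle-stimulating hormone. FOXL2, a forkhead transcription factor, maintains their identity in the adult ovary, while NR5A1 (SF-1) drives many genes of steroid synthesis. Activins, inhibins, follistatin and anti-Müllerian hormone are signalling proteins typical of these cells.

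The libraries held 25025168, 24592016 and 27316167 expected counts in replicates 1, 2 and 3. Between 23533 and 23738 genes had a value above 0 in a library, and the expressed genes held 99.7% of both TPM and counts in each. A value of 3 counts, the limit that a count of 0 allows, corresponded to 0.110 to 0.122 counts-per-million (CPM). This limit covers counting error only. Replicate 3 stood apart from replicates 1 and 2 in its counts over many genes, and replicate 1 stood apart in rRNA and snRNA entries, as measured below. As the libraries are bulk RNA, fewer cells expressing a gene and less RNA per cell cannot be told apart.

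Of the 8 markers fixed for these libraries, 7 reached 1 TPM, and CYP19A1 (aromatase) did not. The 8 are a short list that includes KRT18, a gene not particular to granulosa cells. Of the wider granulosa lists below, 24 of 42 genes were expressed. The order by mean TPM was KRT18, FST, NR5A1, INHBA, AMH, STAR, FOXL2 and CYP19A1. The ranges of NR5A1 and INHBA over the 3 libraries overlapped, as did those of INHBA and AMH, and the other neighbours in this order did not overlap.

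FOXL2 itself was expressed below the median of the expressed genes. It measured 5.36, 5.28 and 5.72 TPM in replicates 1 to 3 (5.45 ± 0.234, SD, n = 3), from 248, 238 and 290 counts, and it ranked 10284 by mean TPM of the 60671 genes. Without replicate 3 its mean was 5.32 TPM. Its values lay within 1 TPM of each other and were not called variable by the test described below. NR5A1, the regulator of steroid synthesis genes, measured 35.3, 34.7 and 34.6 TPM, a mean of 34.9 ± 0.399 that was several times that of FOXL2.

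CYP19A1, which encodes aromatase, the enzyme that makes estrogens from androgens, had 1 count in replicate 1 and none in replicates 2 and 3. Its TPM was 0.07, 0 and 0, and 3 counts would have stood for at most 0.207 TPM. Aromatase RNA was therefore not distinguishable from absence at this depth. STAR, which carries cholesterol into the mitochondrion, was expressed at 14.4, 14.6 and 17.0 TPM (15.3 ± 1.45).

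Of the secreted factors, FST (follistatin, which binds activin) was the highest, at 73.0, 72.2 and 71.1 TPM (72.1 ± 0.953). INHBA, the activin and inhibin beta-A subunit, measured 34.6, 37.9 and 29.6 TPM (34.0 ± 4.17), with the lowest value in replicate 3 and a mean of 36.2 TPM without it. AMH, the anti-Müllerian hormone, measured 25.1, 31.9 and 28.3 TPM (28.4 ± 3.45). KRT18, a keratin of simple epithelia, was the most abundant marker at 847, 911 and 947 TPM (902 ± 50.4), and it is expressed in many other cell types.

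The 3 wider granulosa lists held 42 different genes, of which 24 were expressed and 8 had no count in any of the 3 libraries. Of all 19903 annotated protein-coding genes, 11731 (58.9%) were expressed. The numbers of expressed genes in these lists, and in the lists of other cell types below, stand against that share. The 24 of 42 was near it, so this count alone does not speak to granulosa identity. Among the transcription factors and receptors that regulate granulosa identity, 7 of 15 were expressed. Among them were NR5A1, RUNX1, LHX9, FOXL2, GATA6 and the progesterone receptor PGR, from 34.9 down to 2.75 TPM. GATA6 measured 3.22, 3.56 and 3.41 TPM, whereas its paralogue GATA4 had no count in any library. WT1, EMX2 and RSPO1 also had none, and 3 counts would have stood for at most 0.115 TPM in GATA4 and 0.109 TPM in WT1. FOXO1, the highest of the regulators under the threshold, measured 0.68, 0.49 and 0.34 TPM.

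Gonadotropin receptor RNA was not detected. FSHR, the receptor of follicle-stimulating hormone, and LHCGR, the receptor of luteinizing hormone, had no count, and 3 counts would have stood for at most 0.142 and 0.109 TPM. The hormone and receptor list had 9 of 14 genes expressed. The 9 include FDX1, at a mean of 11.1 TPM, which is neither a hormone nor a receptor. The beta subunits INHBA and INHBB were expressed, INHBB at 6.91, 7.14 and 6.81 TPM, while the inhibin alpha subunit INHA had 5, 1 and 4 counts and a mean of 0.200 TPM. AMH was expressed while AMHR2, its receptor, had 1 count in all. KITLG, the ligand of the KIT receptor on oocytes, measured 24.2, 19.7 and 25.7 TPM. Its normalized counts differed less, at 58.6, 56.1 and 57.4 CPM.

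Of the steroid synthesis list, 8 of 13 genes were expressed, and several enzymes that are specific to steroid-producing cells were not among them. CYP11A1, which makes pregnenolone from cholesterol, had 4, 3 and 3 counts and a mean of 0.147 TPM. HSD3B1 and CYP17A1 had no count, and HSD3B2 had 2 counts, both in replicate 1. In contrast HSD17B4, an enzyme of peroxisomal fatty acid oxidation, was the highest of the list at 71.2, 75.7 and 63.5 TPM. HSD17B12, an enzyme of fatty acid elongation, measured 52.9, 51.0 and 53.8 TPM. The cholesterol receptor SCARB1 and the electron donors POR and FDXR were also expressed, at means of 12.3, 27.7 and 16.2 TPM. HSD17B1, which reduces estrone to estradiol, passed the threshold at 1.02 TPM with 1.54, 0.57 and 0.94 TPM, so that it was at least 1 TPM in replicate 1 alone.

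**Figure D1:**
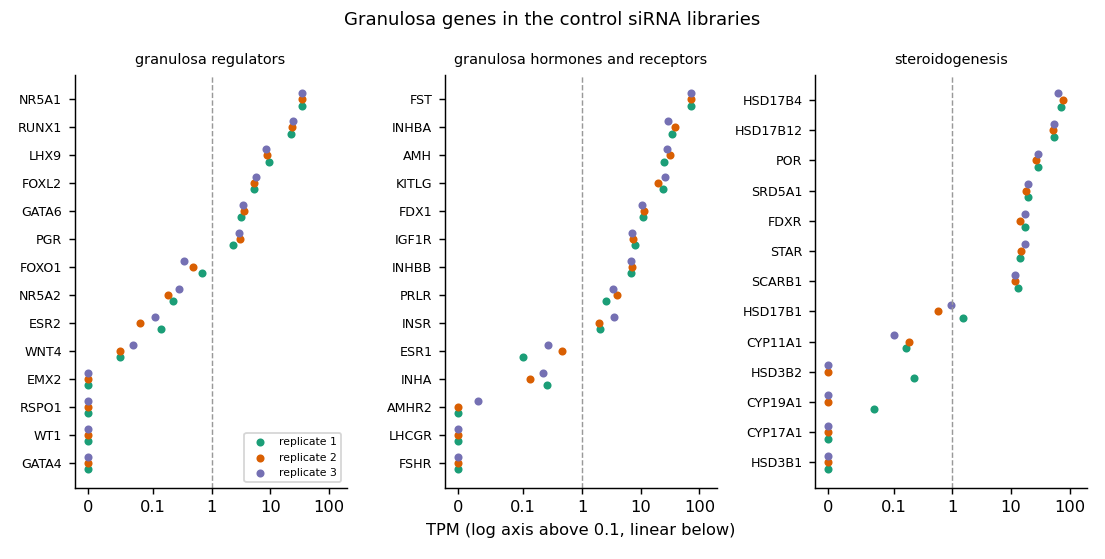
TPM of genes of the 3 granulosa lists in the 3 control libraries (1 point per library; horizontal axis logarithmic above 0.1 TPM and linear below; the dashed line marks 1 TPM). The 8 genes at 0 in every library include FSHR, LHCGR, GATA4 and WT1, while FST stands at 71.1 to 73.0 TPM.

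Genes of the cytoskeleton and of cell junctions were abundant. VIM, the intermediate filament of mesenchymal cells, measured 7901, 7853 and 7509 TPM (7755 ± 214). The cadherin CDH2 (N-cadherin) measured 123, 127 and 128 TPM, whereas CDH1 (E-cadherin) had 1 count in each library and EPCAM had 2, 2 and 4. GJA1, the main gap junction protein of granulosa cells, measured 139, 137 and 122 TPM. KRT8, the partner of KRT18 in keratin filaments, measured 82.4, 82.0 and 82.7 TPM, well under KRT18. The reads of KRT18 and of its 67 annotated pseudogenes may be shared, and adding the pseudogenes gave 905 TPM in place of 902.

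Markers of other cell types of the ovary were checked by lists, since a line may express genes of more than one lineage. The oocyte list had none of 10 genes expressed, 5 of them at 0 in every library, and its summed level was 0.58, 0.4 and 0.5 TPM. Of the theca and Leydig list, 2 of 6 genes were expressed, and CYP17A1, INSL3 and CYP11B1 had no count. The 2 were NR2F2, at a mean of 59.3 TPM, and GLI1, at 7.43 TPM, both above FOXL2. Of the Sertoli list, 3 of 7 were expressed, SOX9 at a mean of 6.71 TPM, CLDN11 at 2.35 TPM and AMH, which granulosa cells also make, while SOX8, DMRT1, DHH and PTGDS had no count.

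The immune list had 2 of 7 genes expressed. These were the lysosomal protein CD68, with a mean of 77.8 TPM, and CD74, with 9.97 TPM, whereas the pan-leukocyte gene PTPRC was at 0.817 TPM and the T cell gene CD3E had no count. Of the endothelial list, ENG (181 TPM) and TEK (1.76 TPM) were expressed, while the means of PECAM1, VWF, KDR and CDH5 were at most 0.237 TPM. PAX8 (25.5 TPM), LHX9 (8.89 TPM) and CALB2 (3.00 TPM) were expressed of the 6 genes of the ovarian surface epithelium list, and MUC16 had no count.

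Genes of fibroblasts and smooth muscle were the most strongly expressed of these lists, with 7 of 9 expressed. COL1A1, a chain of type I collagen, measured 5131, 5429 and 4816 TPM and was the 18th most abundant gene of all. COL1A2 measured 2549, 2630 and 2387 TPM. Smooth muscle actin ACTA2 measured 208, 207 and 266 TPM, while the smooth muscle markers MYH11 (0.727 TPM) and DES (0.117 TPM) were under the threshold. The libraries held high RNA of extracellular matrix genes together with NR5A1, FST and AMH.

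The 8 proliferation genes were all expressed, from 77.2 TPM for the replication factor MCM2 to 344 TPM for cyclin CCNB1. MKI67 measured 108, 106 and 109 TPM. The 8 interferon response genes were also all expressed, from 1.26 TPM for MX1 to 203 TPM for IFI27. IFIT1, a sensor of foreign RNA, measured 4.01, 4.13 and 3.64 TPM. No untransfected culture is part of the design, so the share of these levels that the transfection itself contributes was not tested.

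The expressed genes spanned more than 4 orders of magnitude. Their median was 15.95 TPM, with quartiles of 4.78 and 44.1 TPM. In all, 5553 genes were between 1 and 10 TPM, 7020 between 10 and 100 and 1431 between 100 and 1000, and 152 reached 1000 TPM or more. Just above the threshold were DPH6-DT, DPY19L3-DT and ENSG00000254731, each at a mean of 1 TPM, and just below it were TYMSOS, RERGL and PGF, each at 0.997 TPM. At least 1 TPM in every single library was reached by 13338 genes.

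**Figure D2:**
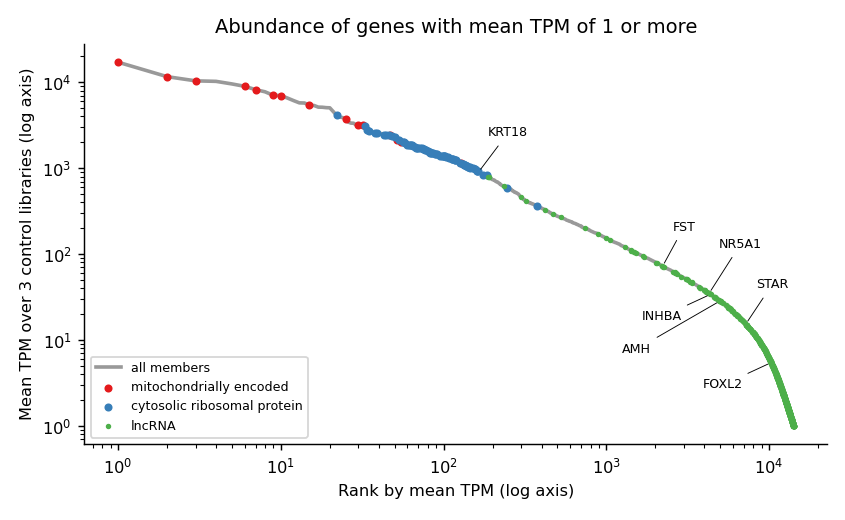
Mean TPM over 3 control libraries of the 14156 expressed genes against their rank (both axes logarithmic), with gene classes in colour and granulosa markers labelled. Mitochondrially encoded and ribosomal protein genes crowd the left end, and the labelled markers run from KRT18 at 902 TPM to FOXL2 at 5.45 TPM.

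RNA was concentrated in few genes. The 332 most abundant genes held the first 50% of TPM, and the 10, 100 and 1000 most abundant held 9.81% ± 0.145, 32.6% ± 0.323 and 65.8% ± 0.218 (SD, n = 3). By expected counts, 686 genes held the first 50%. The 10 highest were 7 mitochondrially encoded genes, led by MT-CO2 (cytochrome c oxidase subunit II) at 17114, 17197 and 17158 TPM, with the actin ACTB, the actin-binding TMSB10 and VIM. As TPM is scaled to transcript length, the short MT-ATP8 ranked 2 from 9448, 9200 and 10405 counts. MT-CO2 had 147862, 144278 and 163213 counts. The next 10 were the galectin LGALS1, GAPDH, the second cytoplasmic actin ACTG1, the elongation factor EEF1A1, the mitochondrial ribosomal RNA MT-RNR2, the calcium-binding S100A6, the prolyl isomerase PPIA, COL1A1, the matrix protein SPARC and TMSB4X, from 6552 to 5047 TPM. Of the 100 highest, 45 encoded cytosolic ribosomal proteins, 14 were mitochondrially encoded, 40 were other protein-coding genes and 1 was a small RNA.

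Protein-coding genes made up 11731 of the expressed genes, which is 58.9% of the 19903 protein-coding genes annotated. Over chromosomes 1 to 22 and X the share lay between 46.3% on chromosome 21 (107 of 231 genes) and 66.8% on chromosome 15 (400 of 599 genes). Of 14828 lncRNA genes, 1315 (8.87%) were expressed, with a median of 2.38 TPM against 20.5 TPM in the protein-coding genes outside the mitochondrial and ribosomal classes. A further 828 pseudogenes and 149 small RNAs passed the threshold.

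The share of TPM by class, taken over all genes of the class, was steady between libraries for the large classes. Protein-coding genes other than mitochondrial and ribosomal ones held 74.3% ± 0.299 of TPM. Cytosolic ribosomal protein genes held 12.3% ± 0.0510, and mitochondrially encoded genes held 9.17%, 9.48% and 9.45% (9.37% ± 0.169). Pseudogenes held 1.56% ± 0.00959 and lncRNAs 1.45% ± 0.0796.

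These shares depended on the unit, since TPM divides each count by transcript length. Of the expected counts, ribosomal protein genes held 4.13%, mitochondrially encoded genes 4.26% and the other protein-coding genes 89.9%. Small RNAs held 0.868% ± 0.395 of TPM but 0.0260% of counts. Their share was 1.32% in replicate 1 and 0.588% and 0.696% in replicates 2 and 3, so it was the only class in which 1 library was over 1.5 times the others.

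Most small RNA values rested on few reads and short transcripts. The 53 rRNA entries, of which 9 were expressed, summed to 5281, 598 and 677 TPM from 1207, 134 and 176 counts, and the median effective length of the expressed ones, the number of positions at which a read can start, was 13.9 bases. The 1909 snRNA entries, of which 28 were expressed, summed to 1869, 151 and 301 TPM from 709, 106 and 137 counts. Replicate 1 was the highest in both. The library kit selects polyadenylated RNA, so these values do not measure the levels of such RNAs in the cell, and what set replicate 1 apart was not tested. Without replicate 1 the class held 0.642% of TPM.

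BCYRN1, a small cytoplasmic RNA of the brain that many tumour lines express, rested on more reads, with 2187, 2263 and 3018 counts and 3048, 3280 and 3694 TPM at an effective length of 42.9 bases. It was the small RNA among the 100 most abundant genes. In all, 481 expressed genes rested on a mean of under 10 counts, of which 119 were small RNAs, 173 lncRNAs and 158 pseudogenes.

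The highest lncRNA values were also tied to shared or overlapping annotation. The 3 top entries, ENSG00000280800, ENSG00000281181 and ENSG00000280614, had identical values of 914, 903 and 562 TPM each, and they cannot be told apart. All 3 are annotated as lincRNA on chromosome 21 and count in the lncRNA share above. Which transcripts their reads came from was not tested, so they are not shown to be lncRNA reads. The next were the snoRNA host genes SNHG5 and SNHG29, at 621 ± 28.8 and 456 ± 10.1 TPM. ENSG00000258232 and ENSG00000267601, at 417 and 267 TPM, are annotated antisense to other genes, and the strand setting of the counting is not given in the sources used here, so their reads may belong to the opposite gene. NEAT1, the scaffold of nuclear paraspeckles, measured 274, 336 and 368 TPM, GAS5 298, 315 and 260 TPM and CYTOR 200, 194 and 205 TPM.

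Cytosolic ribosomal protein genes were abundant and varied little in size between libraries. All 79 were expressed, from 365 TPM for RPL22 to 4144 TPM for RPL41, with a median of 1468 TPM. RPLP0, of the ribosomal stalk, measured 2569, 2567 and 2523 TPM. RPL12 measured 1527, 1528 and 1526 TPM. The median coefficient of variation (CV, the SD over the mean) of their TPM was 2.01%, against 7.54% over all expressed genes and 2.54% over the genes of 1000 TPM or more. Most ribosomal protein genes belong to this last set themselves.

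These genes shared a sequence feature at their start sites that the abundance rule did not use. Transcripts of many genes of the translation machinery begin with a C followed by a run of C and T, the terminal oligopyrimidine (TOP) motif, through which their translation responds to nutrients. Promoter windows from RefSeq (GRCh38.p14, from 250 bases before to 50 bases after a gene's start) were matched by symbol to 10149 of the 14132 symbols of expressed genes and to 63 of the 79 ribosomal protein genes. The motif searched was a C at the first transcribed base followed by 4 bases that were each C or T, on the gene's own strand. The 20 bases around the start are shown for abundant genes with the run in capitals, which begins at the start site, and for a pair of abundant genes without it, to show how the motif sits.
RPL41 (chr12:56116623-56116642, plus strand): cttcgcctttCTCTCggcct
RPLP0 (chr12:120201102-120201121, minus strand): ggcgcgaggcCCTTCTCTCg
RPS27 (chr1:153990752-153990771, plus strand): cgctttcgctCCTTTCCggc
RPL37A (chr2:216498834-216498853, plus strand): gcgtctcttcCTTTCTgggc
RPL12 (chr9:127451397-127451416, minus strand): cgatttccggCCTCTCggct
RPS18 (chr6:33272065-33272084, plus strand): cacttccgctCTCTCTTCCa
EEF1A1 (chr6:73521023-73521042, minus strand): cgtgaacgttCTTTTTCgca
TPT1 (chr13:45341174-45341193, minus strand): ctgagtcggcCTTTTCCgcc
PPIA (chr7:44796671-44796690, plus strand, no run): ggctcgtgccgttttgcaga
RPL10 (chrX:154398055-154398074, plus strand, no run): ccactctcagaaatatacgt

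The motif stood at the annotated start of 43 of the 63 ribosomal protein promoters (68.3%), against 4.04% of all 27305 promoters. Among the 100 most abundant genes with a window it was present in 31 of 68 (45.6%), and in 6 of 34 (17.6%) when the ribosomal protein genes were left out. Among the 1000 most abundant it was present in 13.9%, and among all expressed protein-coding genes in 5.64%. The share was 3.03% in protein-coding genes under 1 TPM. These counts depend on where RefSeq places the start, and a window without the run, as in RPL10, says only that the letters were not at that base.

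A TATA box was searched as TATAAA on the gene's strand, lying wholly within the stretch from 40 to 16 bases before the start. It was found in 142 of 9565 expressed protein-coding genes with a window (1.48%), in 421 of 5745 protein-coding genes under 1 TPM (7.33%) and in 2.54% of all promoters. Among the 100 most abundant genes it was found in 4 of 68 with a window (5.88%), and among the 1000 most abundant in 3.69%. PPIA was 1 of these 4 and the highest-ranked gene with both a window and the motif. Its motif is therefore shown in capitals with its flanks.
PPIA (chr7:44796640-44796665, plus strand): ccgaacgtggTATAAAaggggcggga

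The windows of expressed genes also had a higher GC content, with a median of 65.3% in expressed protein-coding genes against 57.0% in those under 1 TPM. The median number of CG dinucleotides was 27 and 8. No test was made of these differences between sets of genes, which are not replicates.

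The spread between libraries was measured with a chi-square test of each gene's counts in the 3 libraries against counting error (Benjamini-Hochberg adjusted over all expressed genes, threshold 0.05). It compares libraries and not conditions. By this test 3419 of the 14156 expressed genes (24.2%) were called variable. The share called grew with abundance and so with the number of reads, being 13.04% from 1 to 10 TPM, 25.5% from 10 to 100, 54.9% from 100 to 1000 and 77.6% at 1000 TPM or more. Without replicate 3 the test called 469 genes (3.31%), with shares of 2.20%, 2.19%, 10.5% and 28.3% in the same bins. The size of the spread went the other way, with a median CV of TPM of 14.5%, 5.91%, 3.74% and 2.54% in these bins with all 3 libraries. The median CV over all expressed genes was 7.54%, with 1.57% and 38.5% at the 5th and 95th percentiles.

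Replicate 3 was the library farthest from the other two in 2373 of the 3419 called genes (69.4%), being higher in 1233 and lower in 1140. Replicates 1 and 2 were farthest in 474 and 572 genes. When only replicates 1 and 2 were compared, 469 genes differed beyond counting error, against 2736 for replicates 1 and 3 and 2849 for replicates 2 and 3. No pair of libraries was alike within counting error, so none was treated as a repeat deposit of another. The labels give no batch or date for the libraries, and what set replicate 3 apart was not tested.

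In size the departure was small for most genes. Over the 11288 genes with a mean of at least 100 counts, the median absolute log2 difference in normalized counts was 0.06 between replicates 1 and 2, 0.09 between 1 and 3 and 0.10 between 2 and 3. A difference of 1.5-fold or more was seen in 32, 111 and 126 of them. The common biological coefficient of variation estimated by edgeR, the spread in excess of counting error, was 5.54%, and 2.604% without replicate 3.

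Among the genes with the highest dispersion was FLNC, a filamin that crosslinks actin. It measured 247, 243 and 305 TPM, and its normalized count in replicate 3 was 0.37 higher on the log2 scale than the mean of the other two. The structural actin ACTB measured 9938, 10162 and 10675 TPM (log2 difference 0.13), and the semaphorin SEMA7A 481, 491 and 623 TPM (0.38). The iron storage gene FTH1 measured 4192, 4312 and 5163 TPM (0.29). In each of these replicate 3 was the highest library.

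Others were lower in replicate 3. The 3 identical entries annotated as lincRNA were lower by a log2 difference of -0.65, at 562 TPM against 914 and 903. COL3A1, a fibrillar collagen, measured 486, 498 and 399 TPM (log2 difference -0.26), and the growth factor receptor PDGFRA 18.7, 19.5 and 14.3 TPM (-0.36). DSP, a desmosomal plaque protein, measured 32.2, 38.2 and 26.7 TPM (-0.34). Replicates 1 and 2 also differed in DSP, at 194 and 228 normalized CPM against 167 in replicate 3, and it was called variable without replicate 3.

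**Figure D3:**
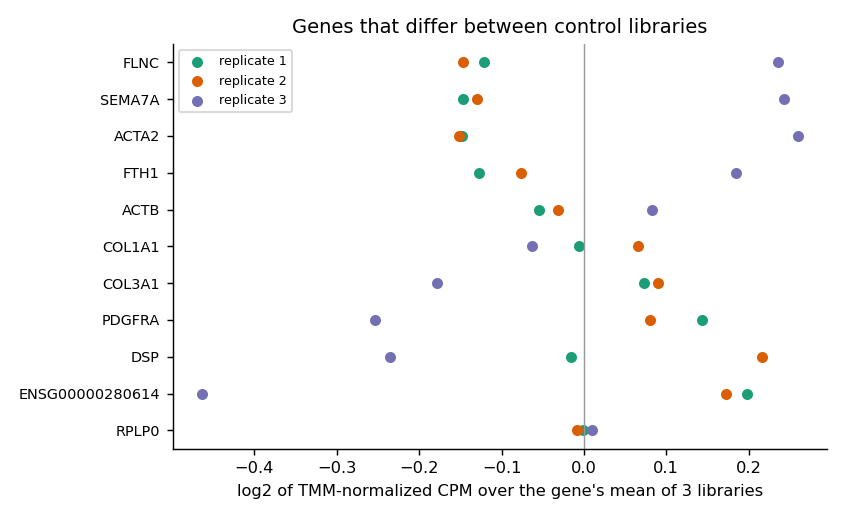
Log2 of the TMM-normalized CPM of each library over the gene's mean of the 3, for genes of high dispersion or of the fixed lists, with RPLP0 as an even gene (1 point per library). Replicate 3 lies apart from replicates 1 and 2 in most of these genes, on the right for FLNC and ACTA2 and on the left for COL3A1 and PDGFRA, and all 3 nearly coincide for RPLP0.

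The counts called in the lists stand against 24.2% of all expressed genes, and against the shares by abundance given above, since calls grew with the number of reads. In the stroma and smooth muscle list, which holds several of the most abundant genes, all 7 of the expressed genes were called, and without replicate 3 COL1A1 and COL1A2 were. ACTA2 was higher in replicate 3 (log2 difference 0.41), whereas the 2 PDGF receptors, the 3 collagens and DCN were lower, with log2 differences from -0.36 to -0.09. Of the 24 expressed granulosa genes 3 were called, which were INHBA, the growth factor receptor IGF1R and FDXR. None of the 7 expressed regulators was called, all of which were under 100 TPM. Without replicate 3 none of the 24 was called. Of the 8 markers INHBA and KRT18 were called, and KRT18 alone without replicate 3. INHBA was lower in replicate 3, with a log2 difference of -0.26, and KRT18 was higher, at 0.15.

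Of the 79 ribosomal protein genes 49 (62.0%) were called, against 77.6% of all genes of 1000 TPM or more, and 9 were without replicate 3. Most of the 79 belong to that comparison set themselves, so the shares overlap. Of 10 common reference genes 5 were called, and ACTB and GAPDH without replicate 3. The 5 included ACTB (9938, 10162 and 10675 TPM) and GAPDH (6062, 5993 and 6298 TPM), whose many reads make small differences detectable. TBP (17.9, 17.4 and 18.4 TPM) and GUSB (57.1, 55.1 and 53.3 TPM) were not called. The lowest CVs among genes of at least 10 TPM were those of ASF1B, a histone chaperone, at 83.46, 83.42 and 83.41 TPM, and of RPL12. The counts of RPL12 were nevertheless called variable, with a CV of normalized counts of 2.09% against 0.0701% for its TPM.

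The genes with the highest CVs of TPM were of several kinds. The 10 genes with the highest CV among those of at least 10 TPM were each seen in 1 library only, with at most 2 counts and an effective length of at most 1.9 bases. Among genes with at least 100 counts, the highest was SAGSIN1, at 16.04, 16.63 and 2.38 TPM from 552, 557 and 89.7 counts. NFASC, a neuronal adhesion protein, measured 10.96, 10.44 and 20.44 TPM from 891, 859 and 1783 counts. In both, the counts differed as TPM did.

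In other genes the TPM differed while the counts did not. SHQ1, a factor for snoRNA particle assembly, had 535, 523 and 535 counts but 13.96, 33.06 and 14.24 TPM, as its effective length was estimated at 2268, 963 and 2035 bases. The insulin receptor INSR had 249, 217 and 248 counts but 2.02, 1.97 and 3.51 TPM, with effective lengths of 7306, 6711 and 3822 bases. Of the 529 genes with at least 100 counts and a CV of TPM over 20%, 163 had a CV of normalized counts under 10%. For such genes TPM moved with the effective length estimated in each library.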

How the data were processed

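RNA-seq of the 3 control siRNA libraries of KGN cells was analysed, grouped by the treatment label, with replicate numbers from the titles. The 3 libraries with siRNAs against FOXL2 were not used here. The authors made stranded mRNA libraries, sequenced single reads, aligned them with STAR 2.7.6a, checked them with Picard 2.8.1 and estimated expression with RSEM 1.3.1. The submitters' notes also name R 3.6.3, DESeq2 1.26.0 and the build GRCm38, a mouse assembly, while every identifier is a human Ensembl gene, so the sources used here leave the human build and the annotation release unnamed. The deposited tables hold RSEM's expected count (an estimated count, not normalized), with the TPM and FPKM values that the authors' RSEM run scaled to library and effective length. Between 67.4% and 67.7% of expected counts above 0 were whole. A gene that shares reads with near-identical copies is uncertain, and 24 expressed genes had values identical to another entry, in 5 sets.

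Gene types came from GENCODE v29 (58453 of 60671 identifiers) and symbols from a table of gene names (60401). Levels are mean TPM ± SD. Expected counts were rounded, library sizes were normalized by TMM on 14752 genes (edgeR 4.0.16, filterByExpr, R 4.3.3), and dispersion beyond counting error was tested by chi-square with 2 degrees of freedom, tested first on simulated data. The CPM values are TMM-normalized except where the 3-count limit is given per total count. Genes named were the 8 markers, the fixed lists, the 20 highest genes, the 10 highest lncRNAs and other protein-coding genes, the 3 genes on each side of the threshold, the 10 highest and 5 lowest in CV and the 10 highest in dispersion at 10 TPM or more. BCYRN1 and the use of INSR as a length example were chosen after their values were seen. The ribosomal protein symbols were spelled out with the files at hand. Members and lists were chosen with earlier results of these data known. Alternatives covered the unit, threshold, normalization, low values, shared reads and each library. The highest CVs with at least 100 counts were a rule added after seeing the data. Some genes that these rules name are not reported here.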

Additional observations from a re-analysis of the deposited data

How the results depend on the processing

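No paired analysis was possible because only 1 group was described, so replicate numbers shared with the other group enter no fit. Of the recomputed values 90 moved by less than the spread between libraries (counts of genes, by less than 1.5 times) and 34 moved further. The expressed genes numbered between 12576 (2 TPM) and 16078 (0.5 TPM). As shares of expected counts, mitochondrially encoded genes held 4.26%, ribosomal protein 4.13%, other protein-coding 89.9%, lncRNA 1.05%, pseudogenes 0.593%, small RNAs 0.0260% and other types 0.0744%. Over expressed genes alone, lncRNA held 1.33%, pseudogenes 1.499% and other types 0.0650% of TPM. Without mitochondrially encoded genes, ribosomal protein genes held 13.6%, other protein-coding 82.0%, lncRNA 1.60%, pseudogenes 1.72% and other types 0.0925%, and FOXL2 was at 6.02, STAR at 16.9, FST at 79.6, NR5A1 at 38.5 and KRT18 at 995 TPM. The 10 and 100 highest genes held 8.89% and 25.3% when ranked by counts, and 7.44% and 27.8% of TPM without mitochondrially encoded genes. The median CV was 5.94% with TMM-normalized CPM and with DESeq2 size factors, 5.37% at 10 TPM or more, and 5.09% to 6.67% with each replicate left out. Calls beyond counting error were 1814 among the 8004 genes with whole counts (22.7% of them), 2238 at an adjusted threshold of 0.01, and 469 (without replicate 3) to 2849 with each replicate left out. The biological coefficient of variation was 2.27% as the median gene-wise dispersion of DESeq2, and 2.604% (without replicate 3) to 6.67%. Genes with a mean of under 10 counts are limited by counting error.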

Other observations

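KRT81, a keratin of hair and nails, was a gene outside the lists whose level stood out after the values were seen. It measured 813, 895 and 653 TPM in replicates 1, 2 and 3 (787 ± 123, SD, n = 3), from 24120, 25824 and 21229 expected counts, against 902 TPM for KRT18 and 82.4 TPM for KRT8. The value was lowest in replicate 3, by a log2 difference of -0.35 from the mean of the other two, and the gene was called variable between libraries. Hair keratin genes are similar in sequence, which makes the value of a single one uncertain.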
